A study of Oncorhynchus mykiss with 16 samples.

Results

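Calpastatin, the protein inhibitor of calpains, was followed on 1 array probe through the culture of rainbow trout preadipocytes. The probe is the one that the scanner files name calpastatin (CUST_171_PI425708691), which is 1 of the 60195 probes of the array that are not controls and 1 of the 42541 that were tested. It had a single spot on each array. It was chosen by its measured signal, which rose over the days of these same arrays, so the levels and differences of calpastatin itself are a description and carry no test. The RefSeq gene table of rainbow trout (assembly USDA_OmykA_1.1) lists 1 gene under the symbol of calpastatin, cast, which was matched by name only. Copies under other symbols were not sought, and the probe could not be assigned to a gene copy.

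Calpains are calcium-dependent cysteine proteases that cut a limited number of sites in proteins of the cytoskeleton, of adhesion sites and of signalling pathways. Calpain 1 and calpain 2 are the ubiquitous forms, and calpastatin, which acts on these and not on other proteases, binds them when calcium is raised and blocks the active site. In 3T3-L1 cells, a mouse preadipocyte line, calpain activity is known to be needed for the divisions that precede differentiation into fat cells. In trout muscle, long and short forms of the calpastatin transcript are known, and which of them the probe detects was not tested.

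RNA was taken from 4 primary cultures at days 3, 8, 15 and 21, with 1 flask and 1 one-colour array for each culture and day. Cells of each culture came from the visceral white adipose tissue of several fish, pooled, so the cultures, named by their label numbers 4, 8, 9 and 10, are the biological replicates (n = 4 at each day). The cells were kept in L-15 medium with fetal bovine serum until they were confluent at day 8, and then in the same medium with insulin, 3-isobutyl-1-methylxanthine, dexamethasone and a lipid mixture. The submitters call the cells mesenchymal stem cells at day 3, proliferated cells at day 8, committed preadipocytes at day 15 and mature adipocytes at day 21.

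No culture kept in growth medium after day 8 is analysed here, so the day of culture and the medium cannot be told apart after confluence. The cells were an unsorted primary isolate. In such bulk samples more cells of a type and more RNA per cell cannot be told apart.

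Depending on the array, 65.5% to 80.5% of the spots exceeded the background clearly (flagged as well above background by the scanner software), and none was saturated. Values are log2 of the processed signal relative to the 75th percentile of the array, which lay between 518 and 881 units of signal, so 0 is the level of that percentile and 1 unit is a doubling. Of the 12 adipocyte markers listed for a check of the labels, only PPARg, the nuclear receptor that drives fat cell formation, had a complete name in the files, and its spot did not clear the background on any of the 16. Of 6 markers of muscle cells and their precursors 3 had a usable name, namely myod1, myogenin and myf5. Of these, myf5 was well above background on only 2 of the 16 arrays and was not among the tested probes. The summed signal of the 3, as a share of the 75th percentile, ranged from 0.287 to 0.564 at day 3 and 0.185 to 1.82 at day 8. It ranged from 0.173 to 0.481 at day 15 and 0.194 to 0.534 at day 21. Markers of fibroblasts, endothelium, macrophages, blood cells and proliferation had no readable name. The paper itself reports PPARg protein as increased from day 8 up to day 21. By array, qPCR and Western blot it reports PLIN2 and ACSL1 as higher at the later days and PCNA as highest at day 3. Those reports were not checked here.

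In every culture the calpastatin signal was higher at day 8 than at day 3 and higher again at day 15 than at day 8, and it then levelled off. At day 3 the log2 value was 3.89, 4.24, 3.95 and 4.08 in cultures 4, 8, 9 and 10, with a mean of 4.04 ± 0.16 (SD, n = 4). At day 8 it was 5.17, 5.25, 5.36 and 5.04 in the same cultures, with a mean of 5.21 ± 0.14 (SD, n = 4). The lowest array of day 8 lay above the highest array of day 3. At day 15 the values were 6.99, 6.92, 6.95 and 6.27, with a mean of 6.78 ± 0.34 (SD, n = 4). At day 21 they were 7.24, 7.24, 6.90 and 6.37, with a mean of 6.94 ± 0.41 (SD, n = 4). All arrays of day 15 lay above all arrays of day 8, whereas the arrays of days 21 and 15 overlapped. Culture 10 was the lowest of the cultures at days 8, 15 and 21 but not at day 3.

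**Figure D1:**
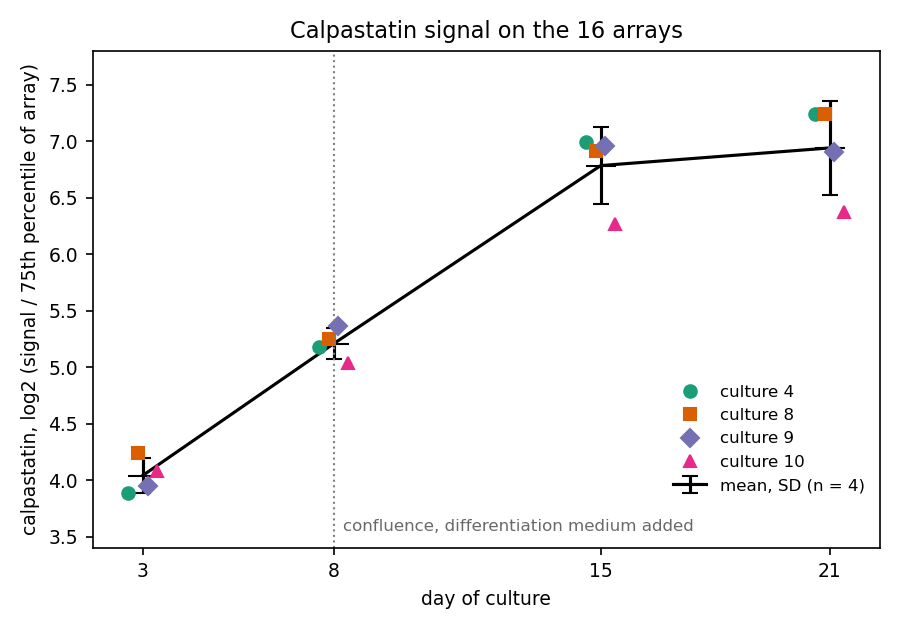
Calpastatin signal on the 16 arrays, as log2 of the signal over the 75th percentile of the array (vertical axis) against the day of culture (horizontal axis). Coloured symbols are single cultures, set slightly apart, the black line joins the day means and the bars are the SD (n = 4). The arrays of days 3, 8 and 15 lie in separate ranges, days 15 and 21 overlap, and culture 10 is lowest from day 8 on.

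The spot was bright on all arrays. Its processed signal ranged from 8302 to 15786 units at day 3, 23724 to 36235 at day 8, 48994 to 90441 at day 15 and 44938 to 111859 at day 21. The raw spot signal was 238 to 510 times the local background at day 3 and 884 to 3309 times at day 21. The probe was thus well above background on all 16 arrays, and it was neither saturated nor marked as an outlier on any. The error that the scanner software assigned to the spot was 10.0% of the signal on each array.

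The increase had 2 steps of similar slope. From the day means, calpastatin was 2.24-fold higher at day 8 than at day 3, a log2 difference of 1.17 ± 0.22 (SD over the 4 cultures), which by culture was 1.29, 1.01, 1.41 and 0.96 in cultures 4, 8, 9 and 10. Day 15 was 2.98-fold above day 8, a log2 difference of 1.58 ± 0.25, with 1.82, 1.67, 1.59 and 1.23 in the same cultures. Both steps were positive in 4 of 4 cultures. The difference between days 21 and 15 was 0.16 ± 0.17 on the log2 scale, 1.11-fold, and in culture 9 it was slightly negative at -0.05. Over the whole culture the difference of day 21 from day 3 was 2.90 ± 0.45, or 7.46-fold, and it was 3.36, 3.00, 2.96 and 2.29 in cultures 4, 8, 9 and 10.

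Divided by the days between samplings, the increase was 0.233 ± 0.044 log2 units per day from day 3 to day 8, 0.225 ± 0.036 from day 8 to day 15 and 0.026 ± 0.028 from day 15 to day 21 (SD, n = 4). The first and second of these slopes differed by less than the spread between cultures, and the change of medium at day 8 lies between them. The second slope was the higher in cultures 4 and 8 and the lower in cultures 9 and 10. An effect of the medium on the slope was not tested. At day 8, when the differentiation medium was added, 40.2% ± 5.97 of the difference between days 21 and 3 was already present, with 33.6% in culture 8 as the lowest and 47.8% in culture 9 as the highest. At day 15 the share was 94.6% ± 5.31, and it was between 89.2% in culture 8 and 102% in culture 9. Calpastatin had thus nearly reached its day 21 level by day 15 in each culture.

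The place of the spot among all probes moved up with the days. By mean signal it was the 2493rd brightest of 60195 probes at day 3, the 1316th at day 8, the 666th at day 15 and the 622nd at day 21, so that 4.14%, 2.18%, 1.10% and 1.03% of the probes were brighter. On single arrays the share of brighter probes was 3.79% to 4.45% at day 3, 2.05% to 2.40% at day 8, 1.03% to 1.35% at day 15 and 0.827% to 1.31% at day 21. These ranges do not overlap among days 3, 8 and 15. The brightness of a spot also depends on the sequence of its probe, so the rank places the spot and not the amount of transcript.

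The scaling to the 75th percentile holds the centre of the probes near 0, and the medians over the 42541 probes were -0.05 for day 8 minus day 3, -0.0045 for day 15 minus day 8, -0.03 for day 21 minus day 15 and -0.05 for day 21 minus day 3 on the log2 scale. In the first step 2283 tested probes, calpastatin counted, rose at least as much as calpastatin, which is 5.37% of them. In the second step they were 362, or 0.851%, and between days 21 and 15 they were 8898, or 20.9%. For day 21 minus day 3, calpastatin had rank 398, so that 0.936% of the probes rose at least as much. Since the probe was picked for this rise, these shares only place its size.

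All 4 arrays of day 8 lay above those of day 3 for 9.83% of the probes, and all 4 arrays of day 15 above those of day 8 for 7.30%. Days 3, 8 and 15 formed 3 ascending ranges without overlap for 418 probes (0.983%), of which 70 (0.165%), calpastatin counted, also had a difference of day 21 from day 3 at least as large as that of calpastatin. When only the direction within each culture was asked for, 1766 probes (4.15%) were higher at day 8 than at day 3 and at day 15 than at day 8 in each of the 4 cultures. The 2 steps share the arrays of day 8.

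**Figure D2:**
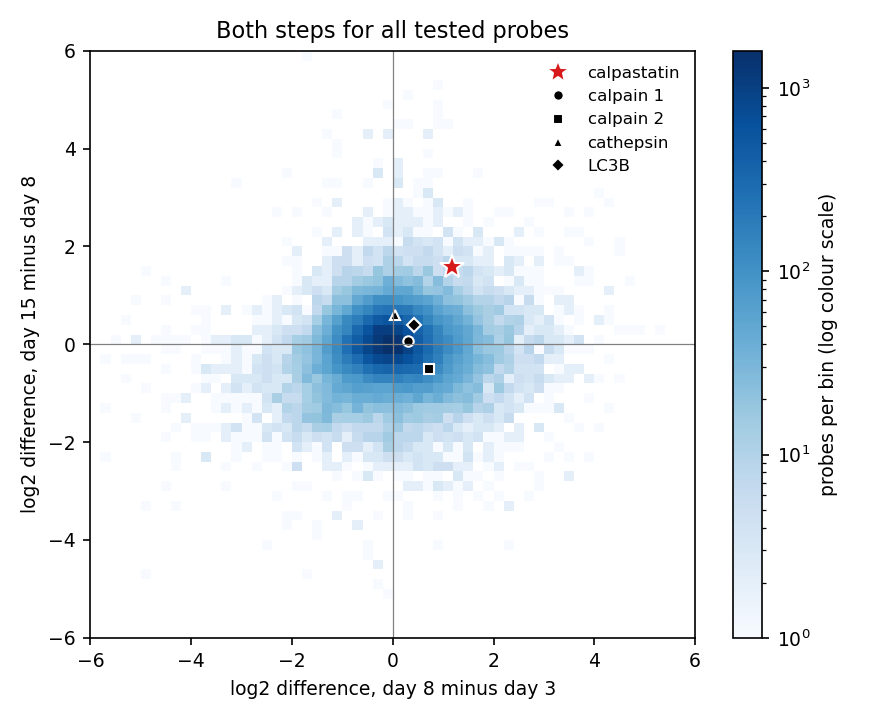
Log2 difference of day 15 minus day 8 (vertical axis) against day 8 minus day 3 (horizontal axis) for the 42541 tested probes, counted in square bins with a logarithmic colour scale, with 10 probes outside the range shown. The star is calpastatin at 1.17 and 1.58, and the black symbols are calpain 1, calpain 2, cathepsin and LC3B. Both axes use the arrays of day 8, so the slant of the cloud is not a result.

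The timing of the rise differed among probes with a total increase of this size. For the 397 other probes that rose at least as much between days 3 and 21, the median share present at day 8 was 57.5% (quartiles 31.7% and 80.0%), and 128 of them had a lower share than the 40.2% of calpastatin. At day 15 their median share was 93.8% (quartiles 87.0% and 100.4%), against which calpastatin had 94.6%. Calpastatin therefore lay between the quartiles of this set on both days.

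The cultures differed in calpastatin about as much as in an average probe. The SD within days, pooled over the 4 days, was 0.29 on the log2 scale for calpastatin and 0.33 for the median of the 35802 other probes well above background on all 16 arrays, and 39.5% of those probes had a smaller SD. At days 3 and 8 its SD of 0.16 and 0.14 was below the median SD of all such probes at those days, 0.27 and 0.32. At days 15 and 21 its SD of 0.34 and 0.41 was above their medians of 0.27 and 0.32. The wider spread at the late days came with the low values of culture 10, which had 6.27 and 6.37 on these days, while cultures 4, 8 and 9 were between 6.90 and 7.24.

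Culture 10 also had smaller median increases in other probes, though not in the first step. For the 397 other probes that rose at least as much as calpastatin between days 3 and 21, the median difference was 3.08 in culture 10, against 3.82, 3.89 and 3.75 in cultures 4, 8 and 9. The increase was smallest in culture 10 for 49.6% of them. In the second step, the corresponding 361 probes had a median difference of 1.69 in culture 10 and of 2.34, 2.04 and 2.34 in cultures 4, 8 and 9. In the first step, 2282 other probes rose at least as much as calpastatin. Their median difference was 1.65 in culture 10 and 1.61, 1.79 and 1.63 in cultures 4, 8 and 9. The first step was smallest in culture 10 for 37.1% of these probes, and in cultures 4, 8 and 9 for 24.1%, 14.0% and 24.8%. Calpastatin also had its smallest first step in culture 10. The part of this pattern in the calpastatin values was not tested.

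The arrays lay on 2 slides that both held all days, and calpastatin increased on each. Slide 1 held 3, 1, 2 and 2 arrays of days 3, 8, 15 and 21, and slide 2 held 1, 3, 2 and 2. The single arrays, of day 8 on slide 1 and of day 3 on slide 2, were both of culture 4. A difference that uses either of them rests on 1 array on that side. Day 8 minus day 3 was 1.08 on slide 1 and 1.33 on slide 2, and day 15 minus day 8 was 1.42 on slide 1 and 1.76 on slide 2. Day 21 minus day 3 was 2.98 on slide 1 and 2.92 on slide 2. The difference between days 21 and 15 did not keep its direction, with 0.48 on slide 1 and -0.17 on slide 2. In these comparisons different cultures stand on a slide at different days, and no culture is on the same slide at days 15 and 21.

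The probes of the proteases that calpastatin inhibits had smaller differences between the days than their inhibitor. Calpain 1 had 2.22, 2.23, 2.02 and 2.23 at day 3 and 2.63, 2.29, 2.27 and 2.69 at day 8 in cultures 4, 8, 9 and 10. It had 2.47, 2.46, 2.57 and 2.64 at day 15 and 2.70, 2.63, 2.53 and 2.71 at day 21. All arrays of day 21 were above those of day 3. Calpain 1 rose by 0.47 (SE 0.13) on the log2 scale between days 3 and 21, 1.38-fold, with an adjusted p of 0.0138 (limma with Benjamini-Hochberg adjustment over all tested probes) and a positive difference in 4 of 4 cultures. The call at an adjusted p below 0.02 was lost without any one of the cultures, while the difference stayed between 0.46 and 0.49. In this fit, which does not pair the arrays, the adjusted p was 0.0558 without culture 4 and 0.0728 without culture 8. It was 0.0777 without culture 9 and 0.0354 without culture 10. With all 4 cultures and culture as a replicate block, which pairs the arrays of a culture, it was 0.0074. The block was not run with a culture left out.

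Calpain 2 had its highest mean at day 8. It measured 3.81, 4.23, 4.11 and 4.30 at day 3 and 4.59, 5.12, 5.33 and 4.32 at day 8 in cultures 4, 8, 9 and 10. It then measured 4.16, 4.48, 4.85 and 3.87 at day 15 and 4.23, 4.41, 4.37 and 3.96 at day 21. The difference of day 8 from day 3 was large in cultures 4, 8 and 9, at 0.77, 0.89 and 1.22, and 0.02 in culture 10. Its mean of 0.73 (SE 0.24) had an adjusted p of 0.0529 in limma, and with culture as a replicate block, which pairs the arrays of one culture, the adjusted p was 0.0121. Day 15 was below day 8 in 4 of 4 cultures, with a mean difference of -0.50 (SE 0.24) and an adjusted p of 0.27, and 0.0973 with the block. Day 21 minus day 3 was 0.13 (SE 0.24), with an adjusted p of 0.72.

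Within each culture calpastatin therefore gained on both calpains, as far as changes of different probes can be set side by side. From day 3 to day 21 the change of calpastatin exceeded that of calpain 1 by 2.43 ± 0.45 on the log2 scale (SD, n = 4), or 5.39-fold, with 3.48-fold in the culture with the smallest and 7.32-fold in that with the largest excess. It exceeded that of calpain 2 by 2.77 ± 0.14, or 6.83-fold, with a range over cultures of 6.19-fold to 7.68-fold. From day 3 to day 21 the excess over calpain 2 varied less between cultures than the rise of calpastatin itself, whose SD was 0.45. Between days 3 and 8 the excess over calpain 2 was only 0.44 ± 0.37, with all 4 cultures positive. Between days 8 and 15 it was 2.08 ± 0.28. In these steps the SD of the excess was above that of calpastatin itself, which was 0.22 and 0.25. Because the rise of calpastatin was the reason for its choice, these excesses were not tested.

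**Figure D3:**
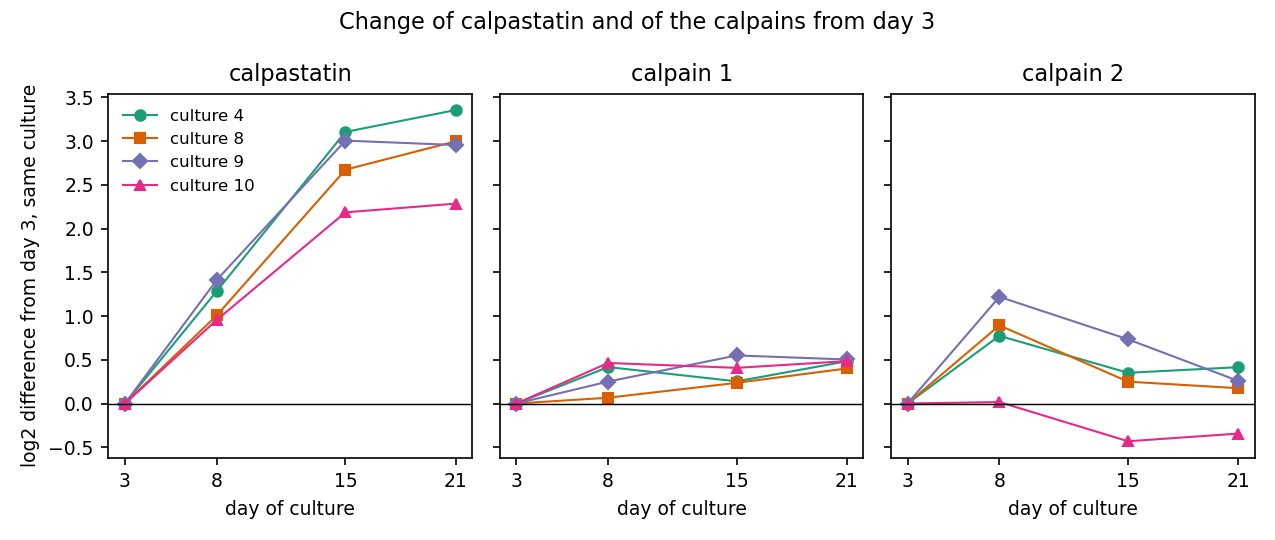
Log2 difference from day 3 of the same culture (vertical axis, one scale for all panels) against the day of culture (horizontal axis) for calpastatin, calpain 1 and calpain 2, with one line per culture. At day 21 calpastatin is 2.29 to 3.36 and calpain 1 is 0.40 to 0.50 above day 3, and calpain 2 has its highest mean at day 8, with 0.77 to 1.22 in cultures 4, 8 and 9 and 0.02 in culture 10.

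Other routes of protein breakdown were read from the remaining probes with usable names. Together with the calpains these were 9 probes, namely 1 cathepsin, the ubiquitin ligase subunit fbx32, the proteasome subunits PSMA1 and MSS1, and the autophagy genes LC3B, atg12l and atg4b. At an adjusted p below 0.02 and a ratio above 3, limma called 0 of the 9 in any of the 4 comparisons, where it called 2.87% of all tested probes for day 8 against day 3, 0.656% for day 15 against day 8, 0% for day 21 against day 15 and 7.91% for day 21 against day 3. At an unadjusted p below 0.05, 3, 3, 0 and 6 of the 9 passed in these comparisons, where 30.9%, 19.9%, 3.46% and 43.9% of all tested probes did, so the 3 for day 8 against day 3 are near the share of all probes. The test over the 4 days that the study's methods name, with the same ratio, also gave 0 of the 9 at an unadjusted p below 0.02, with 9.41% of all tested probes, and without the ratio 5 of the 9 passed, with 33.4% of all tested probes. The largest fold change of the 9 between days 3 and 21 was 2.24, that of LC3B, so that the required ratio was not reached by any. The paper reports the autophagy gene Atg5 in its proliferation cluster of differentially expressed genes. It places genes of chaperone-mediated autophagy in its differentiation cluster. Those genes are not among the 9 probes, whose values do not speak for autophagy genes as a whole.

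With the adjusted p alone, a criterion added after the data were seen, 3 of the 9 were higher at day 21 than at day 3 and 0 were lower, where 11.9% of all tested probes were higher and 13.6% lower. The corresponding numbers were 0 of 9 for day 8 against day 3 (10.0% of all probes), 0 of 9 for day 15 against day 8 (1.91%) and 0 of 9 for day 21 against day 15 (0%, with 1474 probes at an unadjusted p below 0.05). The 3 probes were calpain 1, cathepsin and LC3B. These counts are from the fit that does not pair the arrays. With culture as a block, calpain 2 also passed for day 8 against day 3 (adjusted p = 0.0121). So did cathepsin for day 15 against day 8 (0.0189) and atg12l for day 21 against day 3 (0.0154). The share of all probes that passed with the block is not given here. The median difference of the 9 was 0.47 for day 21 minus day 3 against -0.05 for all tested probes, and it was -0.03 for day 8 minus day 3, 0.25 for day 15 minus day 8 and 0.11 for day 21 minus day 15.

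Cathepsins are the proteases of the lysosome, and the files do not say which one the probe measures. Its values were 7.85, 7.95, 7.82 and 7.66 at day 3 and 7.66, 8.29, 7.73 and 7.82 at day 8 in cultures 4, 8, 9 and 10. They were 8.40, 8.73, 8.37 and 8.36 at day 15 and 8.78, 8.52, 8.45 and 8.41 at day 21. The arrays of days 15 and 21 all lay above those of days 3 and 8. Cathepsin rose by 0.72 (SE 0.16) between days 3 and 21, 1.65-fold, with an adjusted p of 0.0033 and 4 of 4 cultures positive, though the adjusted p was 0.0258 without culture 4 and 0.0324 without culture 9. Day 15 minus day 8 was 0.59 (SE 0.16), with an adjusted p of 0.0487, or 0.0189 with culture as a block, whereas day 8 minus day 3 was 0.05 with 2 of 4 cultures positive. With quantile normalization day 15 minus day 8 was 0.33, with an adjusted p of 0.36.

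LC3B, the ubiquitin-like protein that is coupled to the membrane of autophagosomes, had 1.59, 1.57, 2.02 and 1.26 at day 3, 1.87, 2.01, 2.19 and 2.05 at day 8, 1.60, 2.67, 2.95 and 2.44 at day 15 and 2.56, 2.88, 3.15 and 2.50 at day 21. It rose by 1.16 (SE 0.26) between days 3 and 21, 2.24-fold, with an adjusted p of 0.0028. This adjusted p was 0.0398 without culture 8 and 0.00038 with culture as a block. No single step of LC3B passed the threshold. The probe atg12l, named after the protein that is joined to Atg5 in the growing autophagosome, had day means of 1.55 ± 0.09, 1.51 ± 0.55, 2.05 ± 0.19 and 2.28 ± 0.20 at days 3, 8, 15 and 21 (SD, n = 4). Its difference of 0.73 (SE 0.22) between days 21 and 3 had an adjusted p of 0.0201, and of 0.0154 with culture as a block. For atg4b, a protease that processes LC3, the same difference was -0.05 (SE 0.40), with an adjusted p of 0.93, and its signal was well above background on 15 of 16 arrays.

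The probes of the ubiquitin-proteasome route did not pass the threshold in any of the 4 comparisons. PSMA1, a subunit of the proteasome core, had day means of 5.32 ± 0.23, 5.09 ± 0.19, 4.96 ± 0.08 and 4.98 ± 0.16 at days 3, 8, 15 and 21, and day 21 minus day 3 was -0.34 (SE 0.15) with an adjusted p of 0.0952 and 4 of 4 cultures negative. MSS1, an older name of a subunit of the regulatory cap, had its lowest mean at day 8, at 5.67 ± 0.12, against 6.09 ± 0.19 at day 3, and this difference of -0.43 (SE 0.13) had an adjusted p of 0.0385. The ligase subunit fbx32, also called atrogin-1 and known for the breakdown of muscle protein, was dim, with means between -4.52 at day 8 and -3.46 at day 21. Its difference of 0.83 (SE 0.32) between days 21 and 3 was positive in 4 of 4 cultures, with an adjusted p of 0.0595.

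**Figure D4:**
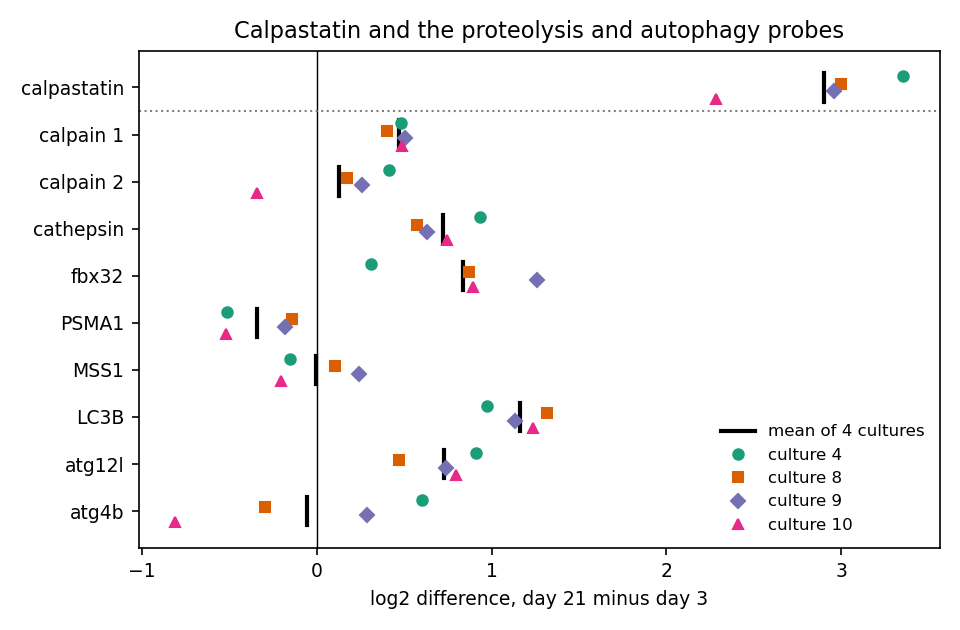
Log2 difference of day 21 minus day 3 (horizontal axis) for calpastatin and the 9 other probes of protein breakdown and autophagy (one row each), with a symbol for each culture and a vertical bar at the mean of the 4 cultures. Calpastatin lies between 2.29 and 3.36, and the next largest mean is that of LC3B at 1.16.

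Probes most like calpastatin were sought by Pearson's r over the 16 arrays among the 35802 others that were well above background on all of them. The arrays share 4 cultures and the order of days, so r describes how alike the profiles are and no p is given. The 5 highest values, from 0.985 to 0.988, belonged to transcript contigs and reads without a gene name, among them TC126468 and TC108960, whose differences of day 21 from day 3 were 2.29 and 2.83. In all, 127 probes had r above 0.95 and 694 above 0.9, and 440 had r below -0.9.

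Among the 32 probes with a complete gene name that could be compared, glucose transporter 1 was most like calpastatin (r = 0.91), followed by cathepsin (r = 0.86) and PPARb (r = 0.81). Glucose transporter 1, which carries glucose into most cell types without need for insulin, had 0.89, 1.11, 1.33 and 1.21 at day 3 and 2.60, 1.99, 2.07 and 1.83 at day 8 in cultures 4, 8, 9 and 10. It had 2.28, 2.82, 3.11 and 2.21 at day 15 and 2.79, 3.22, 2.64 and 2.20 at day 21. The first step was the larger in cultures 4, 8 and 10 and the second in culture 9, and the steps of the mean, 0.99 and 0.48, were 0.74 and 0.75 without culture 4 and 1.07 and 0.29 without culture 9. PPARb, a nuclear receptor for fatty acids, had day means of -0.29 ± 0.23, 0.28 ± 0.37, 0.65 ± 0.43 and 0.88 ± 0.64 at days 3, 8, 15 and 21, with culture 10 lowest from day 8 on, as for calpastatin and glucose transporter 1. When the mean of each culture was taken out, r was 0.91 for glucose transporter 1, 0.89 for cathepsin and 0.89 for PPARb. Calpain 1 had r = 0.72 and calpain 2 r = 0.10. Probes whose names break off were left out of this order, so some of them can be closer to calpastatin than those named. Their r is not given here. L-3-hydroxyacyl-CoA, which was left out, had day means of 2.31, 3.11, 4.04 and 3.85 at days 3, 8, 15 and 21. For phosphoenolpyruvate they were -0.87, -0.02, 0.40 and 0.41, whereas ATP-citrate, at -2.91, -3.14, -3.12 and -3.32, did not rise.

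Among the probes with a complete gene name, the lowest r belonged to PSMA1 (r = -0.65) and to myod1 (r = -0.60), a transcription factor of muscle precursors. At day 8, myod1 was at -0.09 and 0.76 in cultures 4 and 10 and at -3.90 and -3.81 in cultures 8 and 9, while calpastatin was at 5.17 and 5.04 in cultures 4 and 10 and at 5.25 and 5.36 in cultures 8 and 9. At day 21 myod1 was at -1.41 in culture 10, against -3.97, -4.19 and -4.71 in cultures 4, 8 and 9. Myogenin, another muscle marker of the list, went the other way, with r = 0.62 and a difference of day 21 from day 3 of 0.40 (SE 0.18) that was positive in 4 of 4 cultures and had an adjusted p of 0.10. The part of muscle precursors in the calpastatin signal was not tested.

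**Figure D5:**
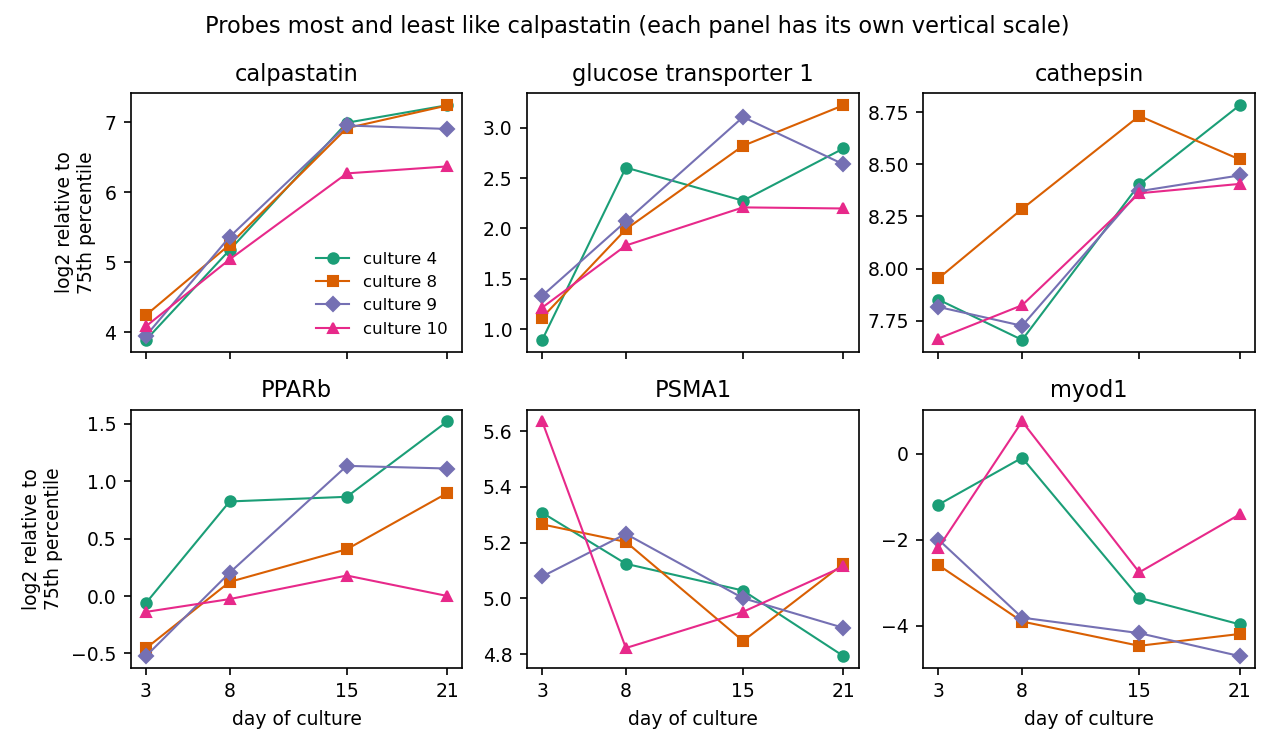
Log2 value relative to the 75th percentile of the array (vertical axis, with a scale of its own in each panel) against the day of culture (horizontal axis) for calpastatin, the 3 probes with a complete gene name most like it (glucose transporter 1, cathepsin and PPARb) and the 2 least like it (PSMA1 and myod1). Lines are single cultures, and levels of different probes cannot be compared.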

How the data were processed

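Scanner intensities of 16 one-colour Agilent arrays were deposited with no scaling between arrays, after background subtraction by the authors in Feature Extraction (version 10.7.3.1). A second deposited table holds log2 values, which equal log2 of the same signals shifted to a common median (to within 0.001 for 98.4% to 98.5% of the probes of each array). It was used only as an alternative, and all its columns were matched to samples. The genome and probe sequences were not used here.

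From the intensities, control spots and 6 to 272 outlier spots per array were left out, spots of a probe were averaged, and log2 relative to the 75th percentile of the array was taken. Of 60195 probes, 1050 lacked a value on some array. The 42541 probes with all values and well above background on the 4 arrays of at least 1 day were fitted with limma 3.58.1 in R 4.3.3, with 1 mean per day, and a call needed a ratio above 3 and a p below 0.02 after Benjamini-Hochberg adjustment. The number of cultures limits the precision. The fit was tested on simulated data with independent noise on each array. That test therefore does not cover the pairing of the arrays of one culture. Summaries and figures used matplotlib 3.10.9, scipy 1.17.1, pandas 2.3.3 and numpy 2.4.6 under Python 3.11.15.

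Named are the calpastatin probe, the readable probes of the proteolysis and autophagy lists, the 5 probes most like calpastatin (of which 2 are printed) and the 3 readable names most and 2 least like it. Probe, lists and tests were chosen with earlier results of these data known. Names that break off were left out of the likeness, and those printed have day means only.

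A culture is a single pool of cells sampled on each day, and its number therefore pairs its arrays. Their deviations from the means of the days correlated over probes, on average, with 0.60 between days 15 and 21, 0.52 between days 8 and 15 and 0.18 between days 3 and 8, where culture 10 gave -0.14. The alternatives were culture as a block, slide as a block, normexp on the median signals with an offset of 50, quantile normalization, a percentile over probes detected on all arrays, outlier spots kept, the deposited values, other filters, leaving out each culture and the methods' ANOVA.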

Additional observations from a re-analysis of the deposited data

Results flagged for a closer look

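In 6 of the 44 sets of 4 cultures examined, 1 culture lay farther from the others than Dixon's critical value for a gap divided by the spread of the set. Chance gives about 1 in 20 such sets if they are independent and normal. The sets come from the same 4 cultures, so the count is a description. For calpastatin at day 15 the culture that stood apart was culture 10, with a value of 6.27 and the others between 6.92 and 6.99 (ratio 0.893). The probe was chosen on these values, so for calpastatin this is no test. For calpain 1 at day 3 it was culture 9, with 2.02 and the others at 2.22 to 2.23 (ratio 0.943). Cathepsin at day 15 was at 8.73 in culture 8, against 8.36 to 8.40 (ratio 0.884). The probe atg12l at day 3 was at 1.41 in culture 9, against 1.58 to 1.60 (ratio 0.911). For the dim probe atg4b culture 4 stood apart on 2 days, with -3.15 at day 8, where the others had -4.81 to -4.53 (ratio 0.831), and -3.51 at day 21, where they had -4.68 to -4.49 (ratio 0.832).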

How the results depend on the processing

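The differences of calpastatin and its share at day 8 moved by less than the spread between cultures in all 55 alternatives run, with ranges of 1.08 to 1.24 for day 8 minus day 3, 1.46 to 1.69 for day 15 minus day 8, 0.08 to 0.22 for day 21 minus day 15, no less than 2.75 for day 21 minus day 3 and 37.6% to 43.0% for the share. The alternatives include culture as a replicate block, which could not move these values, since each culture has 1 array on each day. Leaving out 1 culture also could not move a mean difference by as much as its SD over the 4 cultures. For the differences, these runs were therefore no check on that limit. At an adjusted p below 0.02 with no ratio required, the block changed 3 of the 36 calls of the 9 probes in the 4 comparisons. These were the calls given for calpain 2, cathepsin and atg12l. The number of probes that rose at least as much as calpastatin fell with normexp, which adds an offset, to 1075, 157 and 144 for day 8 minus day 3, day 15 minus day 8 and day 21 minus day 3. It was 189 and 215 for day 15 minus day 8 and day 21 minus day 3 when only probes well above background on all 16 arrays were counted. That set holds 35803 probes in place of 42541. The counts fell from 362 and 398, in proportion a larger drop than that of the set, for a reason that was not tested. The proteolysis and autophagy probes called for day 21 against day 3 were 3 with no ratio required and 0 otherwise. The calls that follow are for day 21 against day 3 at an adjusted p below 0.02, with no ratio required. Calpain 1 also lost its call with normexp (adjusted p = 0.0431), quantile normalization (0.0261) and no filter (0.0277). Cathepsin lost its call with quantile normalization (0.0214), and atg12l gained one with the deposited values (0.0125) and with the stricter filter (0.0178). The difference of atg4b was positive with slide as a block (0.0086), normexp (0.27), quantile normalization (0.17) and the deposited values (0.068), and lay between -0.27 and 0.20 when each culture was left out, with positive values without culture 8 (0.027) or culture 10 (0.20). The cause was not tested. The r of PSMA1 ranged from -0.80 to -0.38 and that of myod1 from -0.72 to -0.51. With the deposited values myod1 was the lower, at -0.60 against -0.38. For glucose transporter 1 the range was 0.88 to 0.96, for cathepsin 0.79 to 0.89 and for PPARb 0.74 to 0.89. By Spearman's rank correlation PPARb was ahead of cathepsin, at 0.88 against 0.81. The order of cathepsin and PPARb, and that of PSMA1 and myod1, therefore depended on the processing or the measure. The median of all probes for day 21 minus day 3 was -0.05, and it was 0.07 with normexp and with the deposited values. Dim probes such as fbx32 and atg4b have the least certain differences.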
